A study of Mus musculus with 2 samples.

Results

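The Iroquois genes are the 6 genes Irx1 to Irx6, and the results below describe the histone mark H3K27me3 at and between them in mouse rib chondrocytes. They were found by symbol in the authors' annotated list of H3K27me3 peaks, where all 6 were among 4987 gene symbols and were joined to 12 of 19359 peaks. The list compares 1 H3K27me3 ChIP library (17237574 filtered tags) with 1 input library (17004082 filtered tags). Both libraries came from wild-type, untreated primary chondrocytes of newborn CD1 mice, released from rib cartilage with collagenase and kept overnight in serum-containing culture, and the number of animals was not given. The libraries are named here by their titles, because the antibody tags in the labels are the other way round. With 1 library a group there was no replicate error, so each value stands without a test. In a bulk sample, a mark in part of the cells and a weaker mark in all of them cannot be told apart. Positions are given on the mouse build mm10. Expression was not measured in these files. The cartilage genes Col2a1, Acan and Sox9 had no peak within 5 kb, and the nearest lay 158.7 kb, 162.8 kb and 1314.8 kb away. Since most protein-coding genes had none either, this does not check the cell type or the antibody tags.

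Iroquois proteins are transcription factors with a homeodomain of the TALE class, in which a short loop between helices is extended. They can repress or activate their targets and help to divide the neural tube, heart, limb and other tissues into territories. In mammals the genes form a pair of clusters that arose by duplication. Irx1, Irx2 and Irx4 lie on mouse chromosome 13, and Irx3, Irx5 and Irx6 on chromosome 8, so that Irx1 pairs with Irx3, Irx2 with Irx5 and Irx4 with Irx6. Polycomb repressive complex 2 places H3K27me3, and the mark is commonly found at genes of this kind in cells where they are silent.

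All 6 Iroquois genes carried the mark by the authors' rule, which joins a peak to a gene within 5 kb, against 20.7% of 21887 protein-coding genes. Peak calls used the stretches where ChIP exceeded input. Each called peak has a pileup, which is the number of ChIP fragments that lie over a base, averaged along the peak, and a fold enrichment, which is pileup over local input background after adding 1 to both. The 12 joined peaks had pileups of 11.92 to 13.68 and fold enrichments of 3.33 to 3.81. Each of the 12 exceeded the median of the whole list in width, in pileup and in fold enrichment, where those medians were 1.27 kb, 11.04 and 3.16. Their own median width was 9.75 kb, and 6 of the 12 were 10 kb or wider, against 3.46% of all peaks. The q-value, averaged along the peak, was 0.01 or lower in 9 of the 12, against 11.02% of all peaks.

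Each cluster held 6 of these peaks, and the totals were close. Irx1, Irx2 and Irx4 had 66.7 kb of joined peaks and Irx3, Irx5 and Irx6 had 68.1 kb, a ratio of 0.98. The pileup, weighted by peak width, was 12.64 over the first cluster and 13.18 over the second, a ratio of 0.96. Fold enrichment weighted in the same way was 3.58 over the second cluster, and the ratio of first to second was 0.977. The near equality of width depended on peaks beside the genes, since with only the peaks that overlap a gene body the sums were 38.1 kb and 24.3 kb, a ratio of 1.57. With only peaks of a q-value of 0.01 or lower the ratio was 0.571. Within the chromosome 13 cluster the summed widths over all joined peaks were 22.1 kb for Irx1, 22.7 kb for Irx2 and 21.97 kb for Irx4. They were less even under stricter limits, at 13.2 kb, 22.7 kb and 0 kb with a q-value of 0.01 or lower, and at 13.2 kb, 10.6 kb and 0 kb with a fold enrichment of 3.5 or more. Within the chromosome 8 cluster they ran from 16.3 kb for Irx6 and 17.9 kb for Irx3 to 34.0 kb for Irx5. No replicate was at hand to say which of these neighbours in length differ. Measured against the other symbols, Irx5 ranked 177th of 4987 in summed width, followed by Irx2 (379th), Irx1 (392nd), Irx4 (402nd), Irx3 (547th) and Irx6 (635th). The median of all symbols was 3.80 kb.

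**Figure D1:**
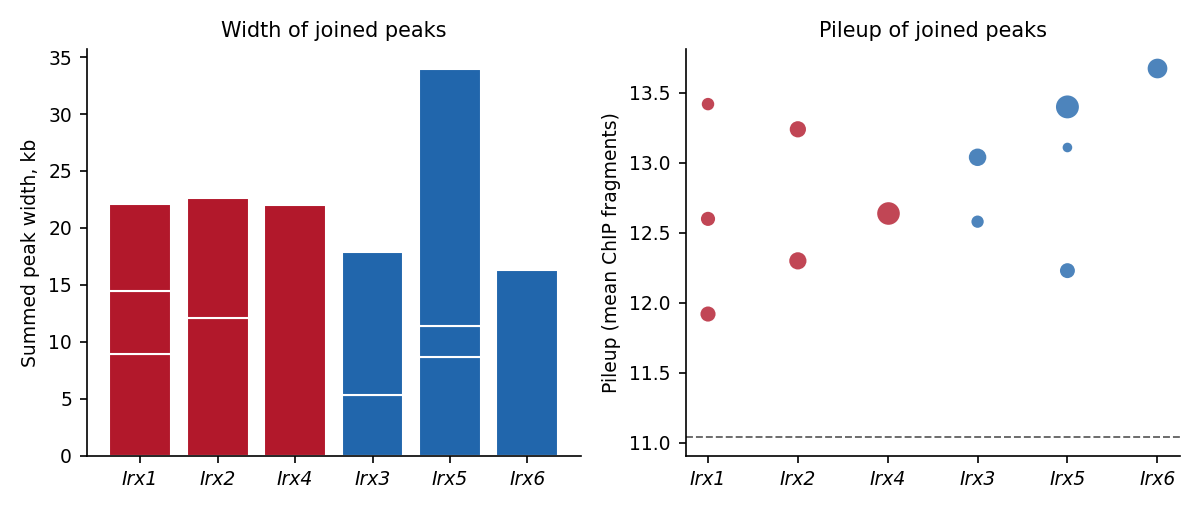
Left, summed width (kb) of the peaks joined to each Iroquois gene, with white lines between single peaks, for the chromosome 13 genes (red) and the chromosome 8 genes (blue). Right, pileup (mean ChIP fragments) of each of the 12 peaks, with larger points for wider peaks and a dashed line at the median of all 19359 peaks (11.04). Irx5 has the largest summed width (34.0 kb) and Irx6 the peak of highest pileup (13.68).

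Irx1 (ENSMUSG00000060969, chromosome 13, 71957922 to 71963723, minus strand) takes part in patterning of the limb, lung and nervous system. It had 3 peaks. The first (71947471 to 71956404, 8.93 kb) lay 1518 bp downstream of the gene with a pileup of 11.92 and a fold enrichment of 3.41. The second (71957601 to 71963163, 5.56 kb) covered 90.3% of the gene with a pileup of 13.42. Its fold enrichment of 3.81 was the highest of the 12 Iroquois peaks and exceeded that of 98.9% of all peaks. The third (71964716 to 71972325, 7.61 kb) began 993 bp upstream and had a pileup of 12.60 and a fold enrichment of 3.55.

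Irx2 (ENSMUSG00000001504, chromosome 13, 72628821 to 72634196, plus strand), often expressed together with Irx1, had 2 peaks. A peak of 12.1 kb (72614769 to 72626854) ended 1967 bp upstream, with a pileup of 12.30 and a fold enrichment of 3.496. A peak of 10.6 kb (72628092 to 72638656) spanned the whole gene, with a pileup of 13.24 and a fold enrichment of 3.54. Both were also joined to a gene record without a symbol. The mark thus lay before this gene and across it.

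Irx4 (ENSMUSG00000021604, chromosome 13, 73260498 to 73269620, plus strand), a gene of the heart ventricle, lay under a single peak of 21.97 kb (73256002 to 73277971) with a pileup of 12.64. This peak was wider than 99.3% of all peaks, but its fold enrichment of 3.42 was the lowest among the best peaks of the 6 genes. Of the 6 genes, Irx4 alone had no peak with a q-value of 0.01 or lower (its q-value was 0.0104) and no peak with a fold enrichment of 3.5 or more. The other 5 genes had such a peak by either limit, against 5.91% and 5.35% of protein-coding genes.

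Irx3 (ENSMUSG00000031734, chromosome 8, 91798512 to 91802067, minus strand) acts in limb and heart development together with Irx5. It had 2 peaks that left most of the gene free. A peak of 5.37 kb (91794071 to 91799436) reached 925 bp into its 3′ end, with a pileup of 12.58 and a fold enrichment of 3.33, the lowest of the 12. A peak of 12.5 kb (91803207 to 91815694) began 1140 bp upstream, with a pileup of 13.04 and a fold enrichment of 3.67. In all, 26.01% of the gene lay under peaks, the smallest share among the 6.

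Irx5 (ENSMUSG00000031737, chromosome 8, 92357797 to 92361454, plus strand), which shapes the repolarization gradient of the heart and has roles in skull and retina, had 3 peaks. A peak of 8.69 kb (92346152 to 92354838) ended 2959 bp upstream, with a pileup of 12.23 and a fold enrichment of 3.48. A peak of 2.67 kb (92359436 to 92362106) covered the 3′ part of the gene, with a pileup of 13.11 and a fold enrichment of 3.595, and 55.2% of the gene lay under it. The widest Iroquois peak, of 22.6 kb (92363574 to 92386202), followed 2120 bp downstream with a pileup of 13.40 and a fold enrichment of 3.56. The upstream peak and the peak over the gene were also joined to the non-coding RNA gene Crnde, which is transcribed away from Irx5.

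Irx6 (ENSMUSG00000031738, chromosome 8, 92674290 to 92680956, plus strand), known from bipolar neurons of the retina, lay under 1 peak of 16.3 kb (92668897 to 92685158). Its pileup of 13.68 was the highest of the 12, and its fold enrichment was 3.68. Irx6 and its counterpart Irx4, at the outer end of either cluster, were thus both enclosed by a single broad peak.

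The genes took 2 forms at their 5′ ends, where a gap means that no peak was called and not that the mark was absent. The 5′ ends of Irx2, Irx4 and Irx6 were under a peak, 3 of 6 genes against 4.45% of protein-coding genes, and in each case the peak spanned the whole gene as the deposited annotation places it, which was so for 0.804% of protein-coding genes. The peak began 729 bp upstream of the 5′ end in Irx2, 4496 bp in Irx4 and 5393 bp in Irx6. At Irx2 a gap thus also stood close to the 5′ end, since the upstream peak ended 1967 bp before it. The 5′ ends of Irx1, Irx3 and Irx5 lay instead in a gap between peaks that stood within 5 kb on either side, an arrangement found at 3.63% of protein-coding genes. The gap at Irx1 was 1552 bp (71963164 to 71964715), that at Irx3 was 3770 bp (91799437 to 91803206) and that at Irx5 was 4597 bp (92354839 to 92359435). Irx1 and Irx3 hold the same place in their clusters and shared the gap, Irx4 and Irx6 shared the cover, and the pair of Irx2 and Irx5 differed. The cover of 5′ ends was the same in 6 of 6 genes when positions were taken from the RefSeq gene table, although its start of Irx2 lies 4391 bp farther upstream and was covered there by the upstream peak of 12.1 kb. No single peak spanned this longer record of Irx2, so that on RefSeq positions 2 of 6 Iroquois genes, Irx4 and Irx6, were spanned whole, against 0.8% of protein-coding genes.

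**Figure D2:**
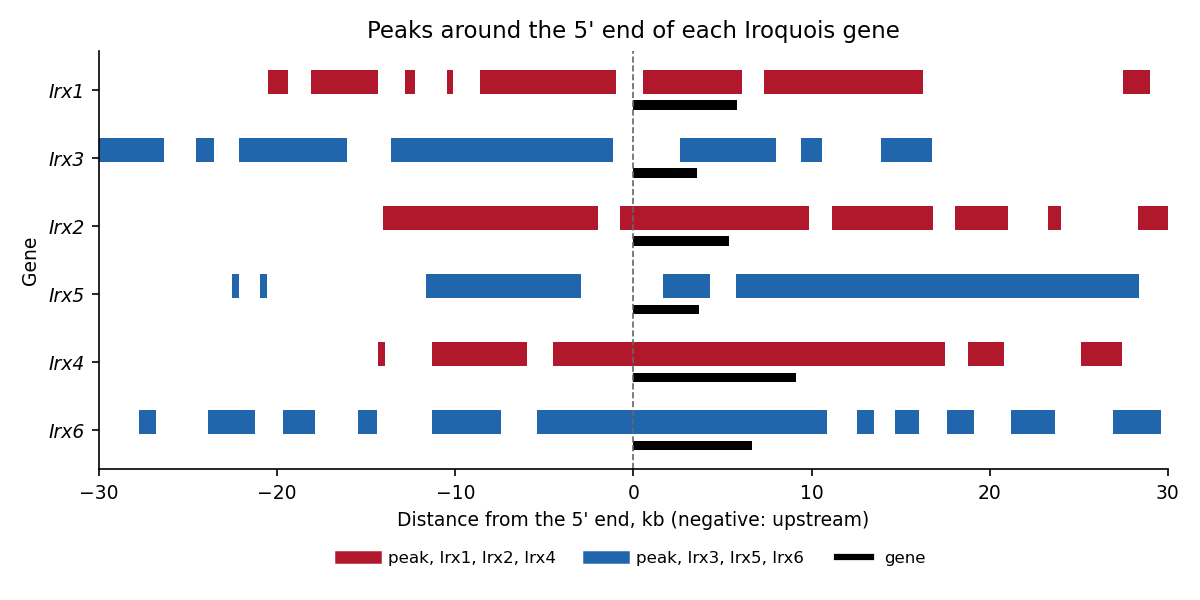
Peaks within 30 kb of the 5′ end of each Iroquois gene, drawn in the direction of transcription (kb, negative values upstream), with red bars for peaks of the chromosome 13 genes, blue bars for those of the chromosome 8 genes and black bars for the genes. The dashed line at the 5′ end crosses a peak in Irx2, Irx4 and Irx6 and a gap of 1552 to 4597 bp in Irx1, Irx3 and Irx5.

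The sequences before the RefSeq starts show what lies under the peaks and in the gaps. Of the 6 genes, Irx2, Irx3 and Irx4 were in the RefSeq promoter table (GRCm38.p6), and Crnde was used for the gap that its 5′ end shares with Irx5. The windows are the 250 bases before the start that the promoter table uses, with each CG dinucleotide in capitals. For Irx2 and Irx4 the RefSeq gene record begins farther upstream than that start. The windows of Irx2 (chr13:72628570-72628819, plus strand) and Irx4 (chr13:73260247-73260496, plus strand) lay wholly under a peak. The window of Crnde (chr8:92356121-92356370, minus strand) lay wholly in the gap.
Irx2: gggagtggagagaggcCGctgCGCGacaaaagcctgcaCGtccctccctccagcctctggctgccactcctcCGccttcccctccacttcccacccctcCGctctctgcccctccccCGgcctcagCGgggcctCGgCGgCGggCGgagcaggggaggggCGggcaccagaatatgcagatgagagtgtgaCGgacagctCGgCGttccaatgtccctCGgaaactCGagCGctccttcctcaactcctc
Irx4: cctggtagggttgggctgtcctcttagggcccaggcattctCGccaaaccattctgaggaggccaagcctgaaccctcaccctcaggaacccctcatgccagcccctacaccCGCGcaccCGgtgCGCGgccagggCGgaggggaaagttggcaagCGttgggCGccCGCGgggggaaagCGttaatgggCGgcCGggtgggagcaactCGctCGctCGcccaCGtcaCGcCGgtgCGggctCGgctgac
Crnde: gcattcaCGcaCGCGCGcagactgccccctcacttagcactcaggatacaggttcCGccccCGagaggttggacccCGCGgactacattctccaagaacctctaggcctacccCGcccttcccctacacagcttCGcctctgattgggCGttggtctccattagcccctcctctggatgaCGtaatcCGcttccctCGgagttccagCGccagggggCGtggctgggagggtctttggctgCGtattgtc

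CG, which reads the same on either strand, was counted in each window. Irx4 had 22 CG dinucleotides, Irx2 19 and Crnde 17, and the window of Irx3 (chr8:91801655-91801904, minus strand), which is not printed, had 13 and no base under a peak. That window lies inside the deposited record of Irx3, which starts farther upstream than the RefSeq start. The window of Irx3os (chr8:91803086-91803335, plus strand), at the edge of the Irx3 gap with 129 bases under a peak, had 5. Over 32851 windows of the same length the median was 6, and 92.1% held at least 1. The share of G and C was 68.8% in Irx4, 68.4% in Irx2, 62.0% in Crnde, 56.0% in Irx3 and 52.8% in Irx3os, against a median of 52.4%. CG content did not order the windows of the whole table by the mark. Of all windows 4.97% overlapped a peak, with 5.34% among those with 15 to 24 CG dinucleotides, 7.53% among those with 5 to 14 3.59% among those with at most 4 and 3.34% among those with 25 or more.

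Between the genes the clusters differed more than at the genes. The span from Irx1 to Irx4 (chromosome 13, 71957922 to 73269620) measured 1312 kb and held 53 peaks, which covered 149.98 kb or 11.4% of it. The span from Irx3 to Irx6 (chromosome 8, 91798512 to 92680956) measured 882 kb and held 76 peaks, which covered 247.9 kb or 28.1%. The chromosome 8 cluster, though 0.673 times as long, thus had 2.46 times the covered share and 2.13 times the peaks per length (8.61 against 4.04 per 100 kb). With only peaks of a q-value of 0.01 or lower the covered shares were 2.77% on chromosome 13 and 12.6% on chromosome 8. On the whole of chromosomes 13 and 8, 2.09% and 2.05% of bases were covered.

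**Figure D3:**
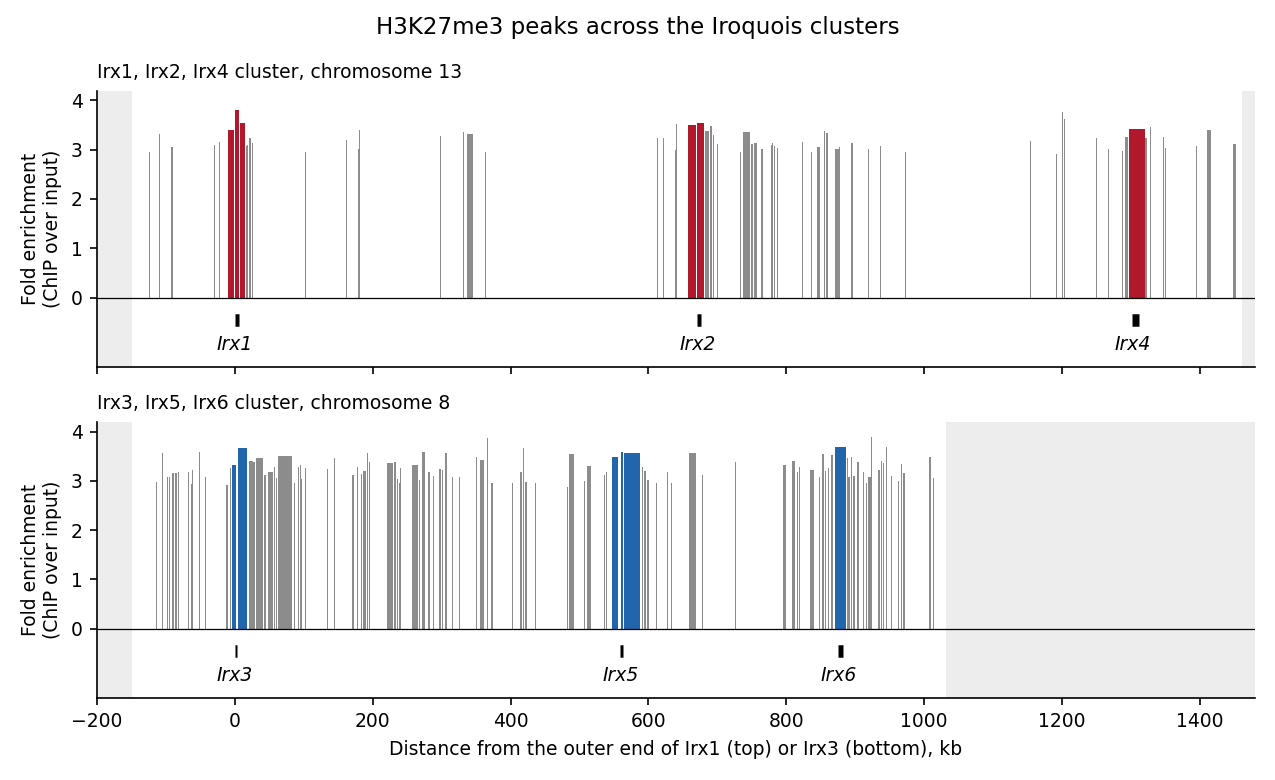
Peaks across both clusters at the same scale, plotted as distance (kb) from the outer end of Irx1 (top) or Irx3 (bottom) against fold enrichment, with coloured bars for peaks joined to an Iroquois gene, grey bars for other peaks and black boxes for the genes. Peaks are drawn up to 150 kb beyond each span and the shaded areas were not drawn, bars are at least 1.5 kb and genes at least 3 kb wide. The bottom cluster holds 76 peaks in its span of 882 kb, the top cluster 53 in 1312 kb.

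Most of these peaks were joined to no Iroquois gene. In the chromosome 13 span 48 peaks were unjoined, and all 48 lacked any gene within 5 kb in the deposited annotation. In the chromosome 8 span 70 were unjoined, and 65 of them lacked any gene. By their medians, unjoined peaks were narrower and weaker than the joined ones. Their median width was 1.41 kb on chromosome 13 and 1.62 kb on chromosome 8, their median pileup 10.72 and 11.21, and their median fold enrichment 3.13 and 3.24. Those with a q-value of 0.01 or lower numbered 2 of 48 on chromosome 13 and 11 of 70 on chromosome 8, against 11.02% of all peaks. Against the whole list, the medians of pileup and fold enrichment lay below on chromosome 13 and above on chromosome 8, and the median width lay above in both spans.

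A few unjoined peaks exceeded all joined peaks in fold enrichment or in pileup, and none did so in both. On chromosome 8 a peak of 0.294 kb (92165050 to 92165343), as long as 1 fragment and 192 kb from Irx5, had a fold enrichment of 3.88 and a pileup of 13.25. The highest fold enrichment of a joined peak was 3.81, over 5.56 kb. On the same chromosome a peak of 0.726 kb (91990475 to 91991200) had a pileup of 14.09, above the highest joined pileup of 13.68. Of the 118 unjoined peaks of both spans, 1 exceeded every joined peak in fold enrichment and 2 did so in pileup.

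The 4 intervals between neighbouring genes differed in the same sense. Between Irx1 and Irx2 (665 kb) peaks covered 7.49%, and a stretch of 248.8 kb (72321489 to 72570323) held none. Between Irx2 and Irx4 (626 kb) they covered 12.8%, and the longest free stretch was 180.5 kb (72931807 to 73112302). Between Irx3 and Irx5 (556 kb) they covered 28.7%, with no free stretch over 45.3 kb (92235136 to 92280452). Between Irx5 and Irx6 (313 kb) they covered 25.2%, with a longest free stretch of 68.7 kb (92525583 to 92594291). The widest unjoined peak in the first interval was 9.09 kb (72294651 to 72303737) and lay 325 kb from Irx2. In the second it was 9.95 kb (72695190 to 72705143), in the third 20.8 kb (91860963 to 91881776) and in the fourth 9.83 kb (92457082 to 92466906). The peak of 20.8 kb overlapped Irx3os, a long non-coding RNA gene that starts upstream of Irx3 on the opposite strand.

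With all called peaks counted, the difference between clusters was small just beside the genes and large away from them. Within 10 kb of an Iroquois gene, inside the spans but outside the gene bodies, peaks covered 84.0% on chromosome 13 and 81.1% on chromosome 8. From 10 to 50 kb the shares were 13.9% and 45.6%. From 50 to 100 kb they were 11.97% and 27.6%, and beyond 100 kb they were 5.66% and 16.6%. The gene bodies, left out of these shares, were covered to 90.3% in Irx1 and 100% in Irx2 and Irx4. On chromosome 8 they were covered to 26.01% in Irx3, 55.2% in Irx5 and 100% in Irx6. The shares include peaks with a q-value above 0.01, among them the only joined peak of Irx4 (0.0104). They were not recomputed under stricter limits. Counted gene by gene, on either side, the gene and its 50 kb flanks were covered to 28.1% in Irx1, 34.9% in Irx2 and 32.3% in Irx4, and to 48.0% in Irx3, 46.8% in Irx5 and 43.2% in Irx6, so each chromosome 8 gene exceeded each chromosome 13 gene.

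Neighbouring peaks around each gene joined into domains. With gaps of up to 5 kb allowed, the domain at Irx3 measured 100.2 kb and held 13 peaks, and 23 of 10770 domains were longer. The domain at Irx6 measured 57.4 kb, at Irx5 53.4 kb, at Irx2 44.3 kb, at Irx4 41.8 kb and at Irx1 36.7 kb. With gaps of up to 20 kb the domain at Irx6 grew to 177.1 kb and 28 peaks, and 43 of 6588 domains were longer. That at Irx5 grew to 151.9 kb and that at Irx3 to 116.1 kb, while those on chromosome 13 measured 56.8 kb at Irx1, 62.8 kb at Irx4 and 88.8 kb at Irx2. By both limits the 3 chromosome 8 domains were longer than the 3 on chromosome 13.

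Regions of the same length beside the spans held fewer peaks than the whole spans. Before Irx1 4.11% of bases were covered and after Irx4 8.45%, the latter above the 7.49% between Irx1 and Irx2. Before Irx3 3.001% were covered and after Irx6 6.26%. The next protein-coding genes outward were Adamts16, a matrix protease gene 1116 kb beyond Irx1, and Ndufs6, a respiratory complex I gene 50.3 kb beyond Irx4. On chromosome 8 they were Fto, an RNA demethylase gene 130.1 kb beyond Irx3, and Mmp2, a gelatinase gene 146.3 kb beyond Irx6. Ndufs6, Fto and Mmp2 had no peak within 5 kb, and the nearest stood 10.9 kb, 16.03 kb and 15.1 kb away. Adamts16 was joined to 5 peaks of 9.50 kb in all.

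**Figure D4:**
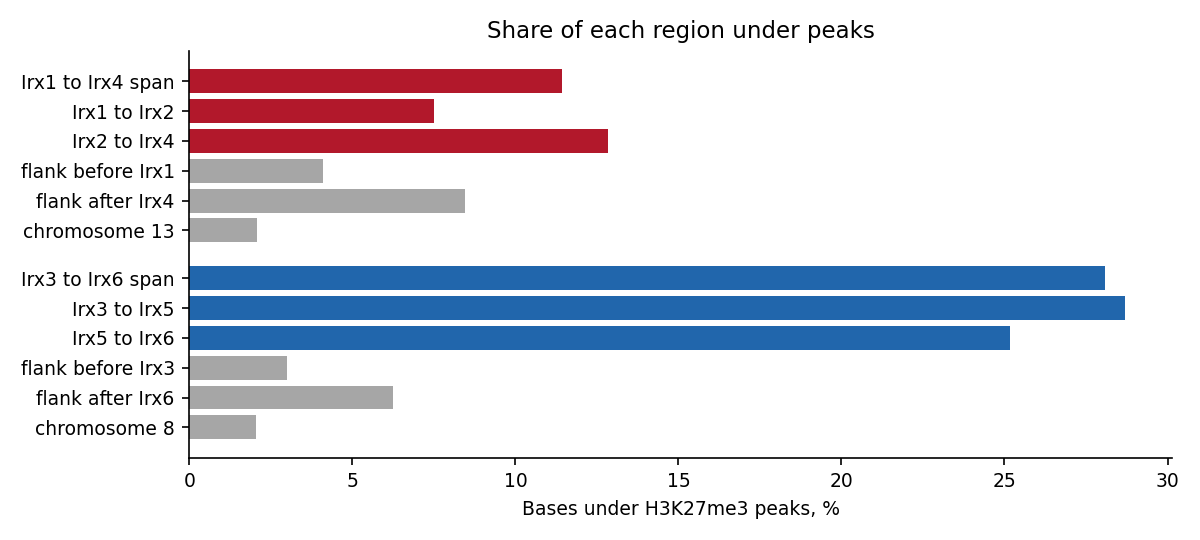
Share of bases under H3K27me3 peaks (%) in each cluster span, in the intervals between genes (red, chromosome 13, and blue, chromosome 8), and, in grey, in flanks of the same length as the span and in the whole chromosome. The chromosome 8 span reaches 28.1% and the chromosome 13 span 11.4%, against 2.05% and 2.09% of their chromosomes.

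The spans hold no protein-coding gene besides the Iroquois genes, but the RefSeq gene table places non-coding genes there. A peak overlapped 5 of 8 long non-coding RNA genes on chromosome 13 and 6 of 7 on chromosome 8, against 14.1% of 12727 such genes in the table. The best covered were Irx3os, with 76.2% of its length under peaks, and Gm20554, which ends just before the deposited 5′ end of Irx2, with 75.7%. Gm39223 (63.7%) and Gm28516 (59.8%) followed on chromosome 8. Crnde was covered to 31.5% and was joined to 4 peaks. Gm41000 and Gm41001, on chromosome 13, had no peak within 5 kb.

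The other genes of the TALE class were mostly without a called peak, as were most protein-coding genes. Of 11 such TALE genes (Mkx and genes of the Meis, Pbx, Pknox and Tgif groups), 1 was joined to a peak, against 20.7% of all protein-coding genes, and 0 of 11 had a peak over the 5′ end, against 4.45%. The gene joined to a peak was Mkx, a tendon regulator and the nearest relative of the Iroquois genes, with 1 peak of 699 bp that lay 2060 bp from the gene. Among the others, which include cofactors of Hox proteins (Meis, Pbx) and repressors of TGF-β signalling (Tgif1), the nearest peak lay between 6.49 kb (Meis2) and 239.6 kb (Pknox2).

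Of 10 genes known as partners, upstream signals or targets of Iroquois factors in limb, skull and heart, 7 were joined to a peak and 5 had a peak over the 5′ end, against 20.7% and 4.45% of protein-coding genes. The transcription factor genes Tbx5 (83.4 kb in 7 peaks), Nkx2-5 (43.4 kb in 1 peak) and Gata3 (36.2 kb in 3 peaks) each had more joined peak width than Irx5. The ligand genes Shh and Cxcl12 had 17.8 kb in 3 peaks and 10.7 kb in 5 peaks. The potassium channel gene Kcnd2 and the connexin gene Gja5 had 1 peak each, of 1.32 kb and 0.978 kb, outside the gene. Gli3, Trps1 and Gja1, the last a connexin gene, had none, and the nearest peaks lay 938 kb, 2871 kb and 1144 kb away.

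Families of other homeobox and zinc finger regulators give a scale for these widths, and they were chosen after their values were seen. The median summed width was 22.04 kb over the 6 Iroquois genes, 17.6 kb over the 6 Dlx genes, 41.2 kb over the 9 Pax genes and 56.1 kb over the 5 Zic genes, and every gene of these families was joined to a peak. The 5′ end was covered in 3 of 6 Iroquois genes, 2 of 6 Dlx genes, 9 of 9 Pax genes and 4 of 5 Zic genes. The 3 symbols nearest in summed width were Foxl2, Foxl2os and Pax1 for Irx5 and Mir124a-1, Mir3078 and Ncan for Irx1. They were Ttc9, Ngfr and Nfasc for Irx3 and Cacng8, Meiob and Aqp2 for Irx6. This is a likeness of width and of nothing else.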

How the data were processed

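Chromatin of primary mouse rib chondrocytes was cut with an enzymatic kit, precipitated with an antibody against H3K27me3 and sequenced beside input DNA, 1 library each. Per the labels, the submitters' processing notes name CASAVA 1.8.4, Bowtie2, MACS2 and the build mm10. Per the file headers, the authors removed duplicates and called broad peaks with MACS 2.1.0.20140616 at a q-value cutoff of 0.05 and a fragment length of 294 bp. Broad calling was on, and the q-value averaged along the peak was at most 0.05 for 60.8% of the deposited peaks and for 12 of the 12 Iroquois peaks. They deposited a pileup signal, a fold enrichment (ratio) and −log10 q-values (averaged along the peak), with p-values that were not used here, and a table that joins peaks to gene records within 5 kb. The tool for that join was not given in the sources used here.

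Values were identical in both tables for 19359 of 19359 peaks. Symbols that shared an entry were split, and 21887 protein-coding genes of the RefSeq table (GRCm38.p6), matched by symbol or synonym, served as background. For 96.9% of 4401 symbols with a position in both, at least 1 end agreed to within 1 kb. Cover was counted in bases with Python 3.11.15, and the interval functions were tested on simulated data. No test across samples was possible with 1 library a group. The genes described are the 6 members, the genes inside the spans and the next protein-coding gene on either side, and 2 lists of related genes (other TALE genes, and partners and targets), with the 3 symbols nearest to each member in summed width. Some genes that this rule names are not reported here. The members and lists were chosen with earlier results of these data known. The alternatives were stricter limits on peaks, other rules of joining and longer spans.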

Additional observations from a re-analysis of the deposited data

How the results depend on the processing

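Over 13 alternatives, 60 values of the counts, shares and ratios were recomputed, and a value was counted as moved when it changed by more than 1.5 times: 37 stayed, 20 moved and 3 ratios crossed to the other side of 1. Of the summed widths of single genes, 19 stayed and 5 moved. The number of Iroquois genes with a peak was 5 or 6 except by cover of the 5′ end (3), and the ratio of mean pileup stayed between 0.938 and 0.992. The covered share of the chromosome 8 span exceeded that of the chromosome 13 span by 2.26 to 6.14 times in 5 of the 5 alternatives that bear on it. Keeping peaks of a q-value of 0.01 or lower moved the covered shares to 2.77% and 12.6% (chromosome 13 and 8) and the ratio of summed width to 0.571, and keeping those enriched 3.5-fold or more moved them to 1.87%, 11.5% and 0.439, with 3 peaks left at Irx1, Irx2 and Irx4. These limits take away Irx4's only peak. Overlap with the gene body, also by at least 500 bp, left 3 peaks in each cluster and turned the ratio of summed width to 1.57 (38.1 kb against 24.3 kb), and cover of the 5′ end left 2 peaks and 1 peak and turned it to 2.00. Both rules leave out peaks beside the genes by construction. Within 50 kb there were 26 and 36 peaks, and joining peaks within 5 kb or 20 kb left 3 domains in each cluster, 1 for each gene. No paired analysis was possible because neither arm had a repeat library. No called peak had a pileup under 9.86, while the background over the whole genome was 2.67, so weaker marking in the gaps and free stretches was not detectable at this depth, and a gap says only that no peak was called there.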

Other observations

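Part of the gene order beyond the clusters is alike, since a gene for a lysophosphatidylcholine acyltransferase and a gene for a monoamine transporter follow Irx4 and Irx6. The next protein-coding genes outward differ, both on this side (Ndufs6 and Mmp2) and on the other (Adamts16 and Fto). The genes described below were chosen after their values were seen. Lpcat1 and Lpcat2, the acyltransferase genes, were not joined to a peak, and the nearest peaks lay 5.83 kb and 34.9 kb away. Slc6a3, the dopamine transporter gene on chromosome 13, was joined to 8 peaks of 29.1 kb in all, and the widest of them (73527094 to 73541194, 14.1 kb, 3.22-fold) covered its 5′ end. Slc6a2, the noradrenaline transporter gene on chromosome 8, was joined to 3 peaks of 3.68 kb in all, the widest of 1811 bp. Here, with all called peaks counted, the chromosome 13 gene had the larger marked width, whereas between the Iroquois genes the chromosome 8 cluster did. No Slc6a3 peak had a q-value of 0.01 or lower, the lowest being 0.0232, and their highest fold enrichment was 3.24. Of the Slc6a2 peaks, only that of 398 bp met this limit, with a q-value of 0.0081 and a fold enrichment of 3.55. The larger width of Slc6a3 thus rested on peaks that the stricter limit leaves out, and under it the direction turned. Tert, which lies beyond Slc6a3 and encodes the catalytic subunit of telomerase, had no peak within 5 kb, and the nearest lay 7.20 kb away.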
